A study of Homo sapiens with 15 samples.

Results

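This report compares COV434 cells transfected with wildtype FOXL2 (pFOXL2wt) with COV434 cells transfected with empty vector. The comparison holds 6 of the 15 arrays of the study, and its members were taken from the sample labels: the 3 arrays titled Wildtype (RR1018, RR1020 and RR1022) and the 3 titled Control (RR1016, RR1021 and RR1023). The remaining arrays are 3 of COV434 with mutant FOXL2 (RR1017, RR1019 and RR1024) and 6 of KGN, a second granulosa cell tumour line, treated with control siRNA or FOXL2 siRNA. COV434 is an established line from a granulosa cell tumour classed as juvenile type, it lacks the tumour mutation of FOXL2, and its own FOXL2 transcript is nearly absent. In every COV434 group, 300000 cells at passage 9 received 1 µg of plasmid. The plasmid and lipid mix stayed on the cells for 7 h, and RNA was harvested at 24 h. The empty vector is the backbone of pFOXL2wt with the FOXL2 insert cut out. Transfection was transient, all samples came from a single line, and the share of cells that took up plasmid was not measured on the arrays. The 3 samples of each group were transfected separately but on a single occasion, so the p-values below measure the spread between those transfections only.

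FOXL2 is a forkhead transcription factor that granulosa cells need to develop, to keep their ovarian identity and to hold testicular genes such as SOX9 silent. It acts on genes of steroid synthesis, the cell cycle and apoptosis, and it works together with SMAD proteins, which carry signals of TGF-β, activin and BMP ligands into the nucleus. The comparison asks which transcripts of a tumour line that hardly makes FOXL2 differ a day after the wildtype factor is supplied.

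The deposited values are log2 signals of U133 Plus 2 probe sets, so a difference of 1 is a 2-fold difference in signal. They were compared with limma across the 9 COV434 arrays, with Benjamini-Hochberg adjustment across the 54613 probe sets that are not array controls. Each gene is given by the probe set that was brightest on average over these 9 arrays. The background level was 5.15, the 95th percentile of 171 probe sets for keratin-associated proteins and olfactory receptors, which these cells are not expected to express. Above it lay 21456 probe sets (39.3%) and 10995 of 19775 genes.

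RR1016, an empty vector array, stood apart from all others in RNA quality. RNA that is broken down keeps signal near the 3′ end of a transcript and loses it towards the 5′ end, and the array carries control probe sets at both ends of ACTB and GAPDH. On RR1016 the 3′ signal exceeded the 5′ signal by 7.81 for ACTB and by 4.67 for GAPDH on the log2 scale. On the other 8 COV434 arrays this gap was 1.98 to 2.58 for ACTB and 0.633 to 1.08 for GAPDH. The empty vector group was also looser than the wildtype group: the median SD over all probe sets was 0.207 against 0.0860. Over all probe sets of the array, the wildtype arrays had pairwise correlations of r = 0.9973 to 0.9978, whereas RR1021 and RR1023 correlated at 0.9912, and RR1016 correlated with RR1021 at 0.9773 and with RR1023 at 0.9807. Differences below are over all 3 empty vector arrays unless given as without RR1016. Where a gene's own probe set is given over all arrays alone, leaving RR1016 out moved its difference by less than 1.5 times.

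**Figure D1:**
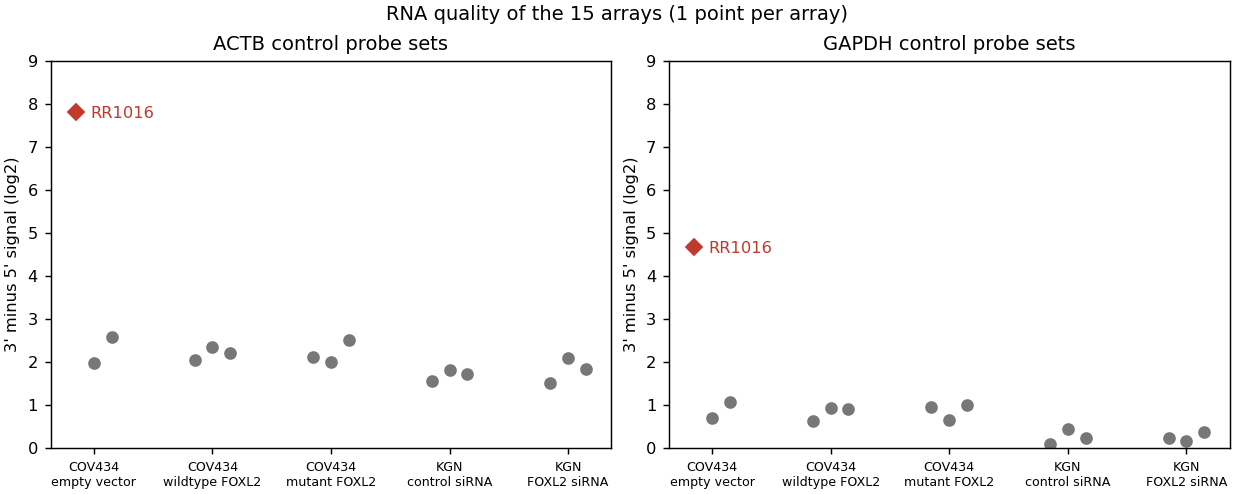
RNA quality of the 15 arrays by group, as the 3′ minus 5′ log2 signal of the ACTB (left) and GAPDH (right) control probe sets; each point is an array. RR1016 (red diamond) lies at 7.81 and 4.67, and every other array lies at or below 2.58 and 1.08.

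The arrays could not check the transfection itself. The study did so by other means: it reports strongly raised FOXL2 transcript by RT-qPCR, and a FOXL2 protein band on Western blot that control cells lacked. The FOXL2 probe set reads the 3′ untranslated end of the transcript, which per the study's methods lies outside the sequence cloned into the plasmid. Its log2 signal was 2.68, 2.83 and 3.11 on the empty vector arrays RR1016, RR1021 and RR1023 and 2.62, 2.52 and 2.67 on the wildtype arrays RR1018, RR1020 and RR1022. Both groups lay far below background, so these values say nothing of how much FOXL2 the cells made. The labelled cell type was checked in the same way. Of 16 measured granulosa markers, 6 lay above background, namely FST, GJA1, HSD17B1, INHBA, NR5A2 and SERPINE2. FOXL2, the FSH receptor FSHR, the aromatase gene CYP19A1 and the inhibin gene INHA did not reach it. Sertoli markers were above background for 6 of 10 genes (among them WT1, SOX8 and CLDN11), theca and stromal markers for 6 of 10 (among them DCN and LUM), neuronal markers for 7 of 14, epithelial markers for 5 of 14, endothelial markers for 2 of 10 and leukocyte markers for 1 of 12. The mean log2 level of the granulosa markers was 5.58 to 5.82 on the empty vector arrays and 5.66 to 5.68 on the wildtype arrays. That of the Sertoli markers was 5.43 to 5.51 against 5.51 to 5.56, of the theca and stromal markers 6.29 to 6.43 against 6.42 to 6.51, of the leukocyte markers 4.12 to 4.37 against 4.28 to 4.34, of the endothelial markers 4.30 to 4.35 against 4.17 to 4.30, of the epithelial markers 4.84 to 4.91 against 4.83 to 4.98 and of the neuronal markers 6.10 to 6.15 against 6.10 to 6.18. The ranges overlapped or met at their ends in each list. These are bulk samples, in which fewer cells of a kind and less RNA per cell cannot be told apart.

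With all 3 empty vector arrays, no probe set passed an adjusted p of 0.05 in either direction (limma, 0 of 54613, 0% called). The lowest adjusted p was 0.235, shared by 125 probe sets. At an unadjusted p under 0.05 there were 6042 probe sets (11.1%), and at an unadjusted p under 0.01, the threshold of the study, 469 were higher with wildtype FOXL2 (0.859%) and 1111 were lower (2.03%). Among genes, the 3 wildtype arrays lay wholly above the 3 empty vector arrays for 849 (4.29%) and wholly below them for 2110 (10.7%). In data simulated for all arrays, the fit recovered 14.9% of changes of 0.5, 92.5% of changes of 1 and 100% of changes of 2 (log2). For the arrays without RR1016 it recovered 29.9%, 97% and 100%. It also called 18 and 12 unchanged probe sets, in the same order. The simulation gave every group the same spread and held no degraded array, unlike the real arrays. It therefore cannot say how many real changes of 0.5 went uncalled.

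Without RR1016, 715 probe sets rose with wildtype FOXL2 (1.31%) and 542 fell (0.992%), with a lowest adjusted p of 0.0165. By gene this was 352 higher (1.78%) and 197 lower (0.996%). The 1257 calls (2.3% of probe sets, or 2.78% of genes) rested on 2 empty vector arrays and on the spread of the wildtype and mutant arrays. None was left when wildtype RR1018, wildtype RR1020, mutant RR1017 or mutant RR1024 was left out as well, when arrays were weighted by their quality, or when the mutant arrays were kept out of the fit.

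RR1016 can be set against the probe sets called without it, since it took no part in choosing them. Of the 715 probe sets that rose, RR1016 lay below all 3 wildtype arrays, on the side of the other empty vector arrays, for 160 (22.4%). It lay within the wildtype range for 180 and above all wildtype arrays for 375. Their median difference from RR1021 and RR1023 was 0.60, but RR1016 exceeded the wildtype mean by a median of 0.12. Of the 542 that fell, RR1016 lay above all wildtype arrays, with the other empty vector arrays, for 280 (51.7%), within their range for 101 and below them for 161. For these, the median difference from RR1021 and RR1023 was −0.51, and RR1016 exceeded the wildtype mean by a median of 0.09. The place of RR1016 over all probe sets was not counted. These shares alone therefore do not show whether it sides with either group more often than elsewhere on the array. Whether the degraded RNA of RR1016 sets its place was not tested.

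**Figure D2:**
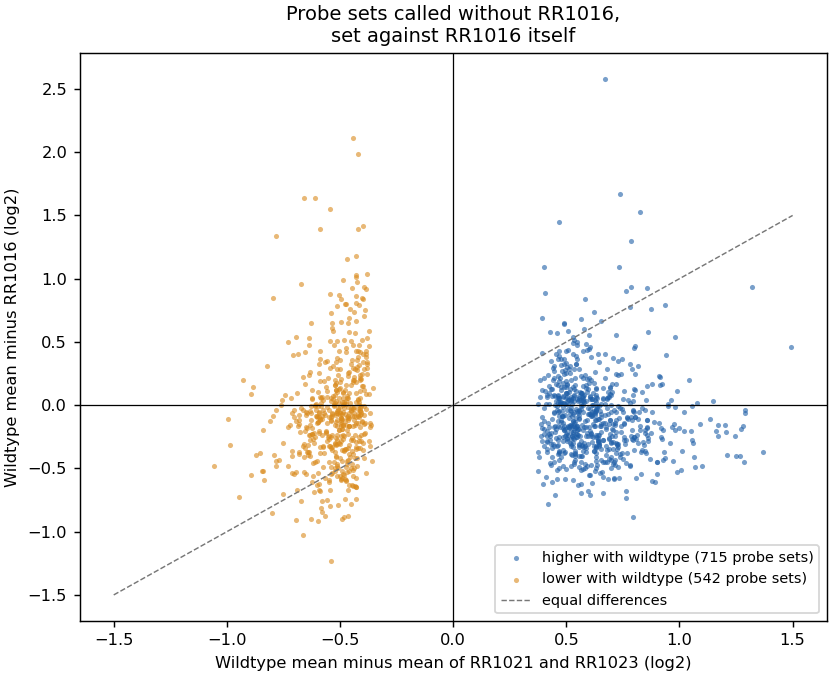
The 1257 probe sets called without RR1016, each a point: the wildtype mean minus the mean of RR1021 and RR1023 (x axis, log2) against the wildtype mean minus RR1016 (y axis, log2), blue for the 715 higher and orange for the 542 lower with wildtype FOXL2. Points on the dashed line would have the same difference against RR1016. Most blue points lie well under it, around 0 on the y axis, and many orange points lie above 0.

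Genes whose difference stood in both versions of the comparison were sought next. An unadjusted p under 0.01 both with all arrays and without RR1016, together with groups that did not overlap, was met by 125 genes that were higher (0.632%) and 309 that were lower (1.56%). Above background there were 70 and 228 of them. The 12 with the largest difference in each direction are described here, and their unadjusted p and lack of overlap are what chose them. Of these 24 genes, 17 (8 higher and 9 lower) also had an adjusted p under 0.05 without RR1016, and none did with all arrays. None of the 24 changed direction in any alternative in which it was recomputed. Where an alternative only left out or weighted arrays, that outcome was fixed in advance. Groups that do not overlap keep the sign of their difference.

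Regulators of signalling and transcription were among the lower genes. BAMBI, a membrane pseudoreceptor that dampens TGF-β and BMP signals, had log2 signals of 7.16, 7.22 and 7.00 with empty vector and 6.17, 6.28 and 6.47 with wildtype FOXL2, in the array order given for FOXL2. The degraded array sat with the other empty vector arrays, and there was a wide gap between the groups. The difference was −0.82 with all arrays, or 0.567 times the empty vector signal (SE 0.12, adjusted p = 0.235), and −0.80 without RR1016 (adjusted p = 0.0271). NR4A3, an orphan nuclear receptor of the immediate early response, had signals of 8.35, 8.27 and 8.25 against 7.63, 7.48 and 7.66. The 3 empty vector arrays lay close together, and every wildtype array was lower. Its difference was −0.70 (SE 0.09, adjusted p = 0.235) and −0.67 without RR1016 (adjusted p = 0.0219). The other NR4A3 probe sets lay near or under background and differed by −0.15 and −0.18.

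Other lower genes serve varied functions. PALS2, a scaffold protein of cell junctions, was at 6.32, 5.96 and 5.87 against 5.42, 5.39 and 5.46 (difference −0.63, and −0.49 without RR1016, adjusted p = 0.0392). ABHD5, which switches on the lipase that breaks down stored triglyceride, was at 7.22, 6.99 and 6.84 against 6.36, 6.27 and 6.41 (−0.67, and −0.57 without RR1016, adjusted p = 0.0332). For both genes RR1016 was the highest array. That the groups stay apart without it follows from their lack of overlap with it. Dimmer ABHD5 probe sets differed by −0.11 and 0.32, and the latter, at a mean of 5.10 just under background, passed as higher without RR1016 (0.60, adjusted p = 0.0475). A PALS2 probe set below background differed by 0.25. FAAP24, a partner of the Fanconi anaemia core complex in DNA repair, differed by −0.61 (−0.71 without RR1016, adjusted p = 0.0214). RPL27A, a ribosomal protein, differed by −0.79 (−0.67 without RR1016, adjusted p = 0.0488), with signals of 7.82, 7.73 and 7.18 against 6.74, 6.85 and 6.78. Its probe set was dim for a ribosomal protein, and such genes have many near-identical copies, so it is uncertain which transcript it reads. The transcripts ZBTB11-AS1 (−0.65), CCDC178 (−0.62) and EPHA5-AS1 (−0.62) also passed without RR1016. PCDH10, a protocadherin of cell adhesion, SPMIP2 and GMDS-DT differed by −0.68, −0.71 and −0.60 and did not pass in either version.

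Of the higher genes, several were clear of the empty vector arrays on every array. NR1D2, a heme-binding nuclear receptor that represses genes of the circadian clock, had signals of 5.93, 6.25 and 6.11 with empty vector and 6.78, 6.80 and 6.72 with wildtype FOXL2. The wildtype arrays lay close together and above all empty vector arrays. The difference was 0.67 (SE 0.10, adjusted p = 0.235), 1.59-fold, and 0.58 without RR1016 (adjusted p = 0.0248). A second, dimmer NR1D2 probe set, at background, differed by −0.06. EHMT1, a histone methyltransferase that helps silence genes, was at 7.61, 7.72 and 7.74 against 8.39, 8.42 and 8.24 (0.66, and 0.62 without RR1016, adjusted p = 0.0228). A second EHMT1 probe set, below background at 4.33, went the other way (−0.22) and passed as lower without RR1016 (−0.39, adjusted p = 0.0488). TSPAN18, a tetraspanin of the cell membrane, was at 4.96, 4.51 and 4.85 against 5.61, 5.51 and 5.51 (0.77, and 0.86 without RR1016, adjusted p = 0.0233). Its empty vector signals lay under background, and a second TSPAN18 probe set, at a mean of 4.95, differed by 0.01 and, without RR1016, by 0.13. YPEL2, of the Yippee-like family, was at 6.19, 5.77 and 5.52 against 6.73, 6.51 and 6.51 (0.76, and 0.94 without RR1016, adjusted p = 0.0219). For these last 2 genes RR1016 was the empty vector array nearest to the wildtype arrays.

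THBS1, a matrix glycoprotein that can release active TGF-β, depended on the probe set. Its brightest probe set gave 10.50, 10.57 and 10.58 against 11.50, 11.48 and 11.30, a difference of 0.88 (SE 0.11, adjusted p = 0.235) and of 0.86 without RR1016 (adjusted p = 0.0228). The next brightest differed by 0.20 and 0.03, and 2 more by −0.63 and −0.35, so no direction can be given for the gene as a whole. Without RR1016 that at −0.63 passed as lower (−0.54, adjusted p = 0.0304). The second probe set pointed the same way for ABAT, the enzyme that breaks down GABA (0.62 and 0.38), and for TMEM30A, a partner of the flippases that keep membrane lipids asymmetric (0.69 and 0.44). The second probe sets of EFNA2 and YPEL2, both below background, differed by −0.05 and −0.02. DMPK, a serine and threonine kinase, differed by 0.79, and by 0.47 without RR1016 (adjusted p = 0.0322), since RR1016 at 5.22 was far below RR1021 and RR1023 at 6.17 and 6.24. A second DMPK probe set above background, at a mean of 5.96, differed by 0.28 with overlapping groups and by 0.08 without RR1016. EFNA2, a membrane-bound ligand of Eph receptors, had the largest difference of the higher genes, 0.92, but RR1016, RR1021 and RR1023 spread from 4.74 to 5.91 and it did not pass without RR1016 (0.66, adjusted p = 0.0928). DNAH6, a dynein heavy chain of cilia, differed by 0.83 and passed without RR1016 (adjusted p = 0.0439), although its 7 other probe sets differed by −0.12 to 0.06. The splicing factor PRPF39 (0.62) and DISP2, of the family that releases Hedgehog ligands (0.64), did not pass in either version.

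**Figure D3:**
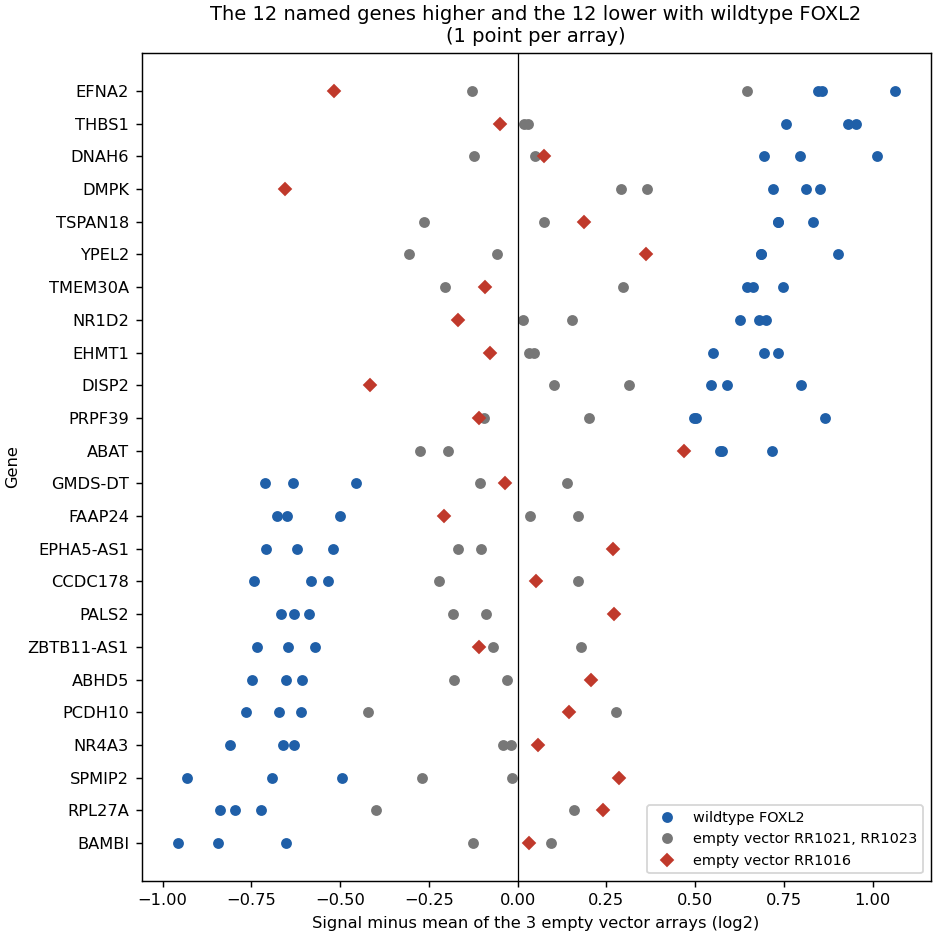
Signals of the 24 genes with the largest differences in both versions, as the log2 signal minus the mean of the 3 empty vector arrays; each point is an array, with wildtype FOXL2 in blue, RR1021 and RR1023 in grey and RR1016 as a red diamond. In every row the 3 wildtype arrays lie wholly to one side of the 3 empty vector arrays, which the choice of genes required. Among higher genes, RR1016 is the empty vector array farthest from wildtype for EFNA2, THBS1, DMPK, NR1D2, EHMT1, DISP2 and PRPF39. It is the nearest for DNAH6, TSPAN18, YPEL2 and ABAT. Among lower genes it is the farthest for RPL27A, SPMIP2, NR4A3, ABHD5, PALS2 and EPHA5-AS1 and the nearest for ZBTB11-AS1 and FAAP24.

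Promoters were searched for letters that forkhead factors are known to bind, since FOXL2 is one. RefSeq promoters (GRCh38.p14, 250 bases before to 50 after a gene's start) were read on both strands for the forkhead core GTAAACA and for GTCAAGG, the core of an element described for FOXL2. A promoter was listed for 19 of the 24 genes, and none of their promoters held either motif. Of all genes with a promoter, 4.19% held GTAAACA and 3.74% held GTCAAGG. Over the wider groups that met the same rule above background, GTAAACA stood in 3 of 49 higher genes (6.12%) and 2 of 190 lower genes (1.05%), and GTCAAGG in 2 of 49 (4.08%) and 8 of 190 (4.21%). A match says only that these letters are present. The 5 genes with a forkhead core are each shown by a single window (NDRG2 and TFDP2 have a match in a second promoter) with 10 bases on either side, the motif in capitals, either as GTAAACA or as its reverse complement TGTTTAC, and each is written along the strand of its gene:
SEMA5B, higher, chr3:123028594-123028620, minus strand: acttaaacttGTAAACAattcggcctc
SULF2, higher, chr20:47786837-47786863, minus strand: aagttactgcTGTTTACaagtgctttc
NDRG2, higher, chr14:21025161-21025187, minus strand: agggggggcgTGTTTACtgggggtctg
TFDP2, lower, chr3:142149611-142149637, minus strand: gggcggggttTGTTTACtccgtgcacg
STX7, lower, chr6:132513521-132513547, minus strand: taggaaaactTGTTTACaagtgagcac

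The genes behind these windows were moderate in size of difference. SULF2, an enzyme that trims sulphate from heparan sulphate chains at the cell surface, was at 7.38, 7.16 and 7.15 against 7.64, 7.83 and 7.53 (0.44, and 0.51 without RR1016, adjusted p = 0.0481). SEMA5B, a semaphorin guidance molecule, differed by 0.36 and NDRG2, a stress and differentiation gene, by 0.34. TFDP2, the dimer partner of E2F factors at cell cycle genes, differed by −0.42, and STX7, a syntaxin of late endosomes, by −0.32. Of the 5, only SULF2 passed without RR1016.

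Known and proposed FOXL2 targets came next, as a list of 34 measured genes of which 19 lay above background. None passed with all arrays. Without RR1016, 2 of the 34 rose, CDKN1B and SIRT1 (5.88%, against 1.78% of all genes). In that version 1 fell, NR4A3 (against 0.996% of all genes). Without overlap of the groups, 2 genes were higher (5.88%, against 4.29% of all genes) and 4 lower (11.8%, against 10.7%), and the median difference of the list was −0.02, the same as that of all genes (−0.02). STAR, which brings cholesterol into mitochondria for steroid synthesis, was at 4.37, 4.17 and 4.36 against 4.16, 4.07 and 4.31. CYP19A1, the aromatase that makes oestrogen, was at 4.84, 3.97 and 4.34 against 4.34, 4.34 and 4.10. Both genes lay below background and their groups overlapped (differences −0.12 and −0.12, exact two-sided permutation test, p = 0.2 and p = 0.9), and that of CYP19A1 turned to 0.10 without RR1016. SOX9, the testis factor that FOXL2 represses in the ovary, was likewise below background in every array, from 3.06 to 3.77 with empty vector and from 3.32 to 3.48 with wildtype FOXL2.

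Targets that COV434 does express gave values of both signs. ATF3, a stress-induced transcription factor, was at 7.25 on RR1016 but at 8.07 and 7.99 on the other empty vector arrays, with wildtype arrays at 7.94, 7.85 and 7.92, so its difference was 0.14 with RR1016 and −0.12 without it. Both dimmer ATF3 probe sets were higher in either version, one at a mean of 5.61 by 0.39 (unadjusted p = 0.00319, no overlap) and 0.32 without RR1016, and one below background by 0.49 and 0.74 (adjusted p = 0.0345 without RR1016). FST, the activin-binding protein follistatin, differed by 0.12 with overlapping groups. NR5A2, a nuclear receptor that drives steroid synthesis genes, was at 10.80, 10.62 and 10.52 against 10.34, 10.39 and 10.38, a difference of −0.28 (unadjusted p = 0.0160, adjusted p = 0.378). Every wildtype array of NR5A2 lay below every empty vector array, and the difference was −0.20 without RR1016. SOX4 differed by 0.22 and overlapped. SIRT1, a deacetylase, and CDKN1B, the cell cycle inhibitor p27, rose without RR1016 by 0.48 (adjusted p = 0.0373) and 0.65 (adjusted p = 0.0233). For both, however, RR1016 was the highest of the 6 arrays, at 8.72 and 9.59.

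The genes of granulosa and Sertoli identity and of steroid synthesis were measured as lists. Of 16 granulosa markers none passed in either version, and 3 were lower without overlap (18.8%, against 10.7% of all genes), namely INHBA, NR5A2 and FOXL2 itself, which lies below background. Of 10 Sertoli markers, SOX8 was higher on every wildtype array. SOX8, a close relative of SOX9 active in the testis, was at 6.25, 6.59 and 6.39 against 6.77, 6.73 and 6.89 (0.39, and 0.31 without RR1016, adjusted p = 0.117). The tight junction gene CLDN11 rose by 0.49 without RR1016 (adjusted p = 0.0319), but RR1016 lay at 5.68, level with the lowest of the wildtype arrays at 5.67, 5.80 and 5.75. Among 19 genes of steroid synthesis, HSD17B3, which makes testosterone in the testis, was at 3.41, 3.21 and 3.46 against 3.81, 3.71 and 3.87 (0.44, and 0.47 without RR1016, adjusted p = 0.0482). Its groups did not overlap, yet all signals were below background.

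Members of the TGF-β and BMP pathways are named by their role. The members described from here on because their groups did not overlap were picked after their values were seen. Among the 34 measured ligands, receptors, SMADs and antagonists of the TGF-β and activin arm, 2 were higher (5.88%, against 4.29% of all genes) and 3 lower (8.82%, against 10.7%) without overlap. Of 27 in the BMP arm 3 were higher and 3 lower (11.1% each). The counts of the TGF-β and activin arm and the lower count of the BMP arm lay near the shares of all genes. INHBA, the activin A subunit, was at 5.65, 5.59 and 6.01 against 5.43, 5.43 and 5.21, a difference of −0.39 (unadjusted p = 0.0132) and of −0.44 without RR1016 (adjusted p = 0.113). BMP7, a BMP ligand, was at 6.12, 5.91 and 6.38 against 6.46, 6.45 and 6.44, a difference of 0.31 (unadjusted p = 0.0281). For INHBA the wildtype arrays lay below all empty vector arrays, and for BMP7 they lay above, RR1023 by little.

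Receptors and SMADs differed mainly with the choice of arrays. TGFBR1, the type I TGF-β receptor, was at 9.30 on RR1016, 8.62 and 8.64 on the other empty vector arrays and 9.16, 9.19 and 9.16 with wildtype FOXL2. SMAD1, a transducer of BMP signals, was at 9.05, 8.21 and 8.15 against 8.78, 8.85 and 8.77. In both genes RR1016 exceeded all wildtype arrays, so that these probe sets rose by 0.54 and 0.62 without it (adjusted p = 0.0301 and 0.0223) and differed by 0.31 and 0.33 with it, short of the threshold. A second SMAD1 probe set of similar brightness (mean 8.47) went the other way, by −0.30 (unadjusted p = 0.0102, no overlap) and −0.26 without RR1016, so no direction can be given for SMAD1 as a whole. SMAD6, an inhibitor of BMP signalling, was at 7.54, 7.49 and 7.46 against 7.22, 7.29 and 7.41 (−0.19, unadjusted p = 0.0856). BAMBI, described above, had the largest difference of this pathway.

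Downstream, the ID genes, which BMP signals switch on, did not share a direction. ID3 was at 12.93, 13.10 and 13.14 against 12.77, 12.75 and 12.78 (−0.29, and −0.35 without RR1016, adjusted p = 0.0718). ID2 was at 12.10, 12.04 and 12.12 against 12.33, 12.42 and 12.18 (0.22). ID3 was thus lower and ID2 higher on every wildtype array, whereas ID1 could not be placed, since RR1016 gave 9.54 against 11.74 and 11.61 on RR1021 and RR1023 (difference 0.28, and −0.43 without RR1016). Of 14 common TGF-β responsive genes, THBS1 and COL1A1 were higher without overlap (14.3%, against 4.29% of all genes) and none lower. THBS1 is counted there by its brightest probe set, which its other probe sets did not bear out. KLF10, an early TGF-β response gene, rose by 0.52 without RR1016 (adjusted p = 0.0373), with RR1016 at 8.74 level with the highest wildtype array.

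Genes of the cell cycle are given by phase. Of 40 genes of S phase and mitosis, all above background, 7 were lower without overlap (17.5%, against 10.7% of all genes) and none was higher (against 4.29%), and the median was −0.06, against −0.02 for all genes. Here and for the other lists, the shares of all genes include genes below background. Shares among genes above background alone are not given. RRM2, a subunit of ribonucleotide reductase, was at 11.57, 11.57 and 11.51 against 11.22, 11.17 and 11.24 (−0.34, SE 0.08, unadjusted p = 0.00159; −0.33 without RR1016, adjusted p = 0.0579). CDC25A, the phosphatase that opens entry into S phase, was at 8.64, 8.54 and 8.50 against 8.28, 8.21 and 8.21 (−0.32, and −0.28 without RR1016, adjusted p = 0.0973). Both genes had tight groups with RR1016 among its own. CDT1, which loads the replicative helicase, differed by −0.44 and, without RR1016, by −0.28. CENPF, a kinetochore protein, differed by −0.23 and −0.30, and CCNB2, a mitotic cyclin, by −0.20 and −0.12, in the same order. CDC20, an activator of the anaphase-promoting complex, was the list's member that passed without RR1016 (−0.42, adjusted p = 0.0381), with RR1016 at 10.29 level with the wildtype arrays at 10.31, 10.33 and 10.38. Of 17 replication-dependent histone genes, 5 were lower without overlap (29.4%) and 1 was higher, with H2AC8 at −0.49 (−0.36 without RR1016) the lowest of them, and none passed without RR1016.

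Regulators of G1 went both ways, with 2 of 15 higher (13.3%, against 4.29% of all genes) and 3 lower (20%, against 10.7%) without overlap. CDK6, the kinase that starts G1 progression, was at 7.67, 7.71 and 7.41 against 7.31, 7.04 and 7.17 (−0.43, unadjusted p = 0.00356). MYC, a growth factor-driven transcription factor, was at 10.38, 10.83 and 10.20 against 10.12, 9.99 and 10.13 (−0.39, unadjusted p = 0.0291). CDKN1A, the inhibitor p21, was at 10.16, 10.53 and 10.62 against 10.83, 10.81 and 10.83 (0.39, unadjusted p = 0.00842). The kinase and MYC were thus lower and the inhibitor higher on every wildtype array. Without RR1016 the differences were −0.39, −0.44 and 0.25, with adjusted p of 0.104, 0.175 and 0.110, so none passed. CDKN2B, another inhibitor, differed by −0.39 (−0.26 without RR1016) and RBL1, a relative of RB1, by 0.45 (0.48 without RR1016). RB1 itself rose by 0.57 without RR1016 (adjusted p = 0.0256), with RR1016 at 9.14 above the wildtype arrays at 8.86 to 9.01. Its other probe set, far below background at 3.28, fell by 0.52 without RR1016 (adjusted p = 0.0363). FOXO3, a forkhead factor of growth arrest, rose by 0.42 without RR1016 (adjusted p = 0.0443), with RR1016 at 9.00 between the wildtype arrays. The next brightest FOXO3 probe set differed by −0.02, and by −0.15 without RR1016. A dimmer one, at a mean of 6.24, differed by 0.67 with overlapping groups, and by 0.35 without RR1016.

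Among 22 p53 targets, 2 were higher without overlap (9.09%, against 4.29% of all genes), CDKN1A and TP53INP1, and 1 lower, FBXO22. TP53INP1, which aids p53-driven arrest and death, was at 8.68, 8.54 and 8.31 against 8.89, 8.74 and 8.80 (0.30, and 0.38 without RR1016, adjusted p = 0.0700). SPATA18, a p53 target of mitochondrial quality control, rose by 0.51 without RR1016 (adjusted p = 0.0431) from a level under background. Of 33 regulators of apoptosis, BIK, which promotes death, was higher without overlap (0.42, and 0.33 without RR1016), and 6 were lower (18.2%, against 10.7% of all genes). Among the 6 were the caspase genes CASP2, CASP9 and CASP10, with small differences (−0.15, −0.18 and −0.22) and adjusted p of 0.181, 0.435 and 0.154 without RR1016. XIAP, a caspase inhibitor, rose by 0.97 without RR1016 (adjusted p = 0.0228). This brightest probe set was at 7.92 and 8.35 on RR1021 and RR1023 and at 9.14, 9.20 and 8.97 with wildtype FOXL2. RR1016 stood at 9.27, higher than all of these. An XIAP probe set at a mean of 8.38 differed by 0.06, and by 0.01 without RR1016. Another, at 7.59, was higher without overlap (0.46, and 0.60 without RR1016, limma adjusted p = 0.0332). Dimmer ones above background differed by 0.39 and 0.46, and without RR1016 by 0.21 and 0.34. The size of the XIAP difference thus depended on the probe set.

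**Figure D4:**
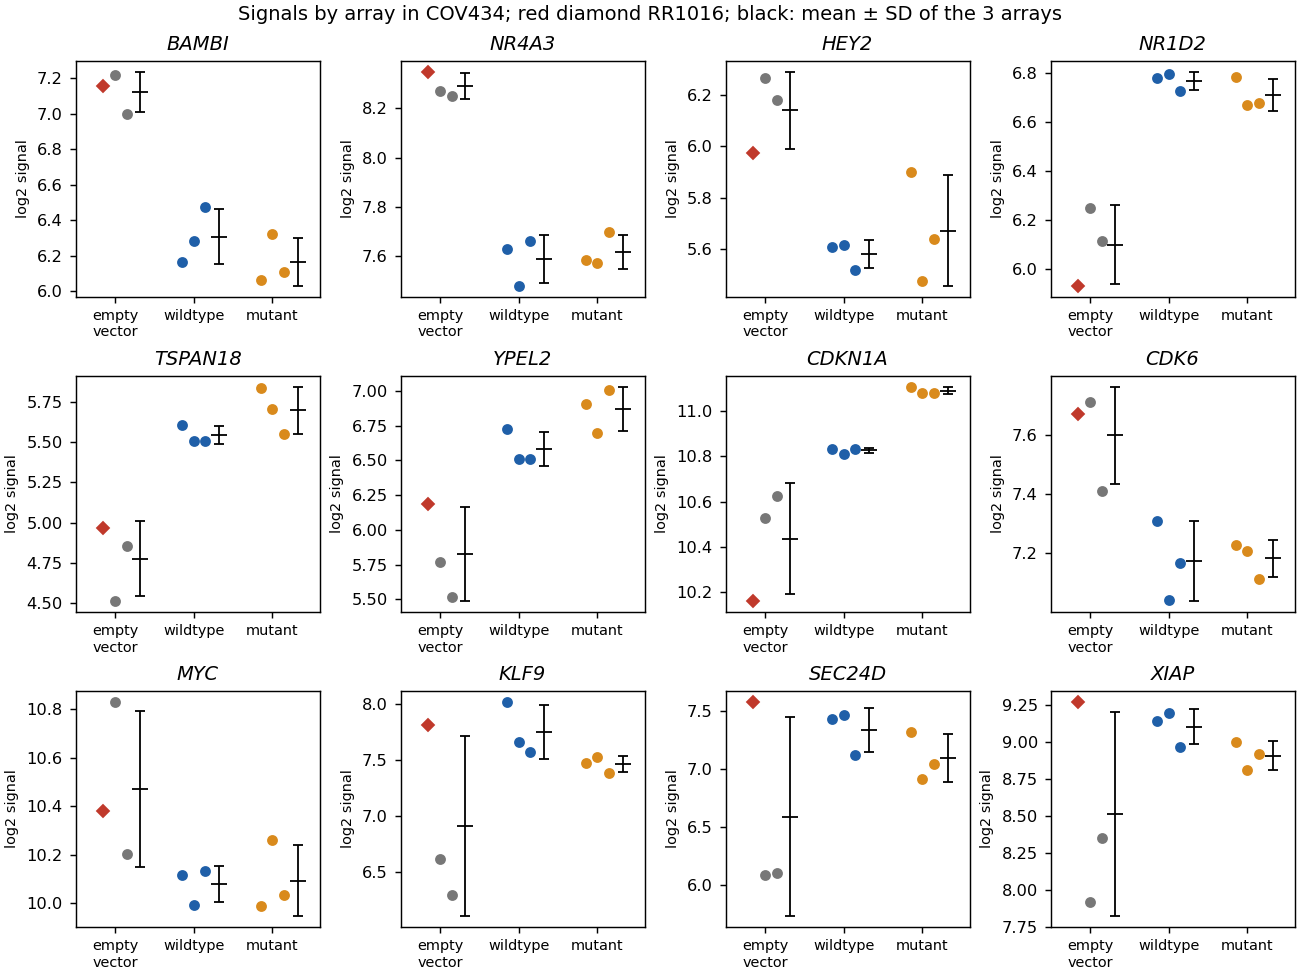
Log2 signals of 12 genes on the 9 COV434 arrays, by group (grey empty vector, blue wildtype FOXL2, orange mutant FOXL2; red diamond RR1016), with the mean ± SD of each 3 arrays in black; the y axes do not start at 0 and differ between panels. For BAMBI, NR4A3 and NR1D2 RR1016 sits with the other empty vector arrays, while for KLF9, SEC24D and XIAP it sits at the level of the wildtype arrays. Mutant arrays lie near the wildtype arrays in most panels, with CDKN1A at 10.82 ± 0.01 for wildtype and 11.09 ± 0.01 for mutant.

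Notch and clock genes held differences of both signs. Of 23 Notch genes, 2 were higher (8.7%, against 4.29% of all genes) and 3 lower (13%, against 10.7%) without overlap. HEY2, a transcriptional repressor that Notch switches on, was at 5.97, 6.27 and 6.18 against 5.61, 5.62 and 5.52 (−0.56, SE 0.13, adjusted p = 0.268). Without RR1016 this was −0.64 (adjusted p = 0.0373). A second HEY2 probe set, at a mean of 5.12 just under background, differed by −0.19 with overlapping groups and by 0.03 without RR1016. HEYL, its relative, was at 4.52, 4.70 and 4.19 against 4.84, 4.87 and 5.11 (0.47), below background. JAG2, a Notch ligand, was at 6.55, 6.67 and 6.85 against 7.03, 7.00 and 7.03 (0.33, and 0.26 without RR1016). By these brightest probe sets HEY2 was lower and the ligand higher on every wildtype array. HEY1, by far the brightest of the family at 13.15 ± 0.08 and 13.06 ± 0.04 (SD, n = 3 each), differed by −0.09 with overlapping groups. Of 15 clock genes, 3 were higher without overlap (20%, against 4.29% of all genes), with NR1D2 well ahead of CLOCK (0.15) and PER3 (0.08), and 1 was lower, BMAL1 (−0.07, and −0.03 without RR1016). CRY1, a clock repressor, rose by 0.52 without RR1016 (adjusted p = 0.0361), with RR1016 at 8.70 between the wildtype arrays.

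In the Wnt list 1 of 33 was higher (3.03%) and 2 were lower (6.06%) without overlap, both under the shares of all genes (4.29% and 10.7%). SFRP4, a secreted Wnt antagonist, was at 6.55, 6.26 and 5.67 against 5.57, 5.57 and 5.45 (−0.63, and −0.44 without RR1016). RSPO3, a secreted enhancer of Wnt signals, differed by −0.41, and by −0.23 without RR1016. SFRP4 on RR1023 was close to the wildtype arrays, and neither gene passed without RR1016. FZD2, a Wnt receptor, fell by 0.51 without RR1016 (adjusted p = 0.0306), but RR1016 at 7.29 lay below the wildtype arrays at 8.01 to 8.12, which left a difference of −0.08 over all arrays.

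Inflammatory and stress genes gave few clear differences. CXCL8, the chemokine interleukin 8, was at 8.64, 8.53 and 8.13 against 7.90, 7.87 and 7.82 (−0.58, unadjusted p = 0.00182; −0.47 without RR1016, adjusted p = 0.0847). Every wildtype array lay below every empty vector array. The NF-κB list to which it belongs had 3 of 18 lower without overlap (16.7%, against 10.7% of all genes), none higher and a median of −0.10, or −0.21 without RR1016. Of 38 interferon response genes, 3 were higher and 3 lower without overlap (7.89% each, against 4.29% and 10.7%). RIGI, a sensor of viral RNA, rose by 0.99 without RR1016 (adjusted p = 0.0256), with RR1016 at 6.59 just inside the wildtype range of 6.56 to 6.82. A second RIGI probe set differed by 0.85 and another by −0.42.

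Of 31 genes of unfolded protein and amino acid stress, 2 were higher without overlap (6.45%, against 4.29% of all genes), HSPA5, the chaperone BiP, and DDIT4, an inhibitor of mTORC1, and 4 were lower (12.9%, against 10.7%). HSPA5 differed by 0.42, and by 0.27 without RR1016. DDIT4 was at 7.60, 8.43 and 8.67 against 8.90, 9.05 and 8.73, which gave 0.66 with RR1016 and 0.34 without. CHORDC1, a partner of the chaperone HSP90, rose by 0.59 without RR1016 (adjusted p = 0.0287) with RR1016 at 10.09, above all wildtype arrays. FTL, the ferritin light chain of iron storage, was at 11.10, 11.48 and 11.62 against 11.88, 11.85 and 11.80 (0.44, and 0.30 without RR1016, adjusted p = 0.0879). It was 1 of 3 genes in 21 of the oxidative stress list that were higher without overlap (14.3%, against 4.29% of all genes), beside GCLC (0.24) and MT1F (0.21).

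Matrix and metabolic genes are given by their counts. Of 30 matrix genes 5 were higher without overlap (16.7%, against 4.29% of all genes) and none was lower (against 10.7%), while the median of the list was −0.04, or 0.05 without RR1016. COL6A1, a collagen VI chain, was at 4.91, 5.18 and 5.10 against 5.52, 5.50 and 5.60 (0.48, unadjusted p = 0.00231), and LAMC1, a laminin chain, differed by 0.22. LUM, the matrix proteoglycan lumican, rose by 0.71 without RR1016 (adjusted p = 0.0256), with RR1016 at 10.58 the highest of the 6 arrays. A dimmer LUM probe set, at a mean of 6.28, differed by −0.05, and by 0.11 without RR1016. Of 41 subunits of oxidative phosphorylation 8 were lower without overlap (19.5%, against 10.7%) and none higher (against 4.29%), with differences from −0.27 (NDUFS1) to −0.07 (COX4I1). The exception without RR1016 was NDUFA5, a complex I subunit that rose by 0.98 (adjusted p = 0.0223), RR1016 lying at 9.74 within the wildtype range. Of 18 cholesterol synthesis genes 4 were lower without overlap (22.2%, against 10.7%), among them EBP (−0.42) and IDI1 (−0.29). In fatty acid synthesis, ACACB, an acetyl-CoA carboxylase, was at 7.11, 7.19 and 6.94 against 6.61, 6.60 and 6.55 (−0.49, unadjusted p = 0.000848; −0.48 without RR1016, adjusted p = 0.0571), while ACSL1, which activates fatty acids, rose by 0.65 without RR1016 (adjusted p = 0.0214), with RR1016 at 8.91 above the wildtype arrays. A second ACSL1 probe set, at a mean of 7.49, differed by 0.08, and by −0.21 without RR1016.

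Few members of the remaining lists passed. Of 25 SWI/SNF subunits none was apart in either direction, and ACTL6A was the member that rose without RR1016 (1.06, adjusted p = 0.0196), with RR1016 at 9.95 above the wildtype arrays. Of 41 ribosomal protein genes 4 were lower without overlap (9.76%, against 10.7% of all genes) with a median of −0.0011. Of 39 forkhead genes 1 was higher without overlap, FOXO6 (0.44), and 4 lower (10.3%). In a list of 22 measured genes that the study had picked from its overexpression arrays, 5 were higher and 5 lower without overlap (22.7% each, against 4.29% and 10.7% of all genes) and none passed in either version. That list was chosen on these samples and is not independent evidence of a direction.

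**Figure D5:**
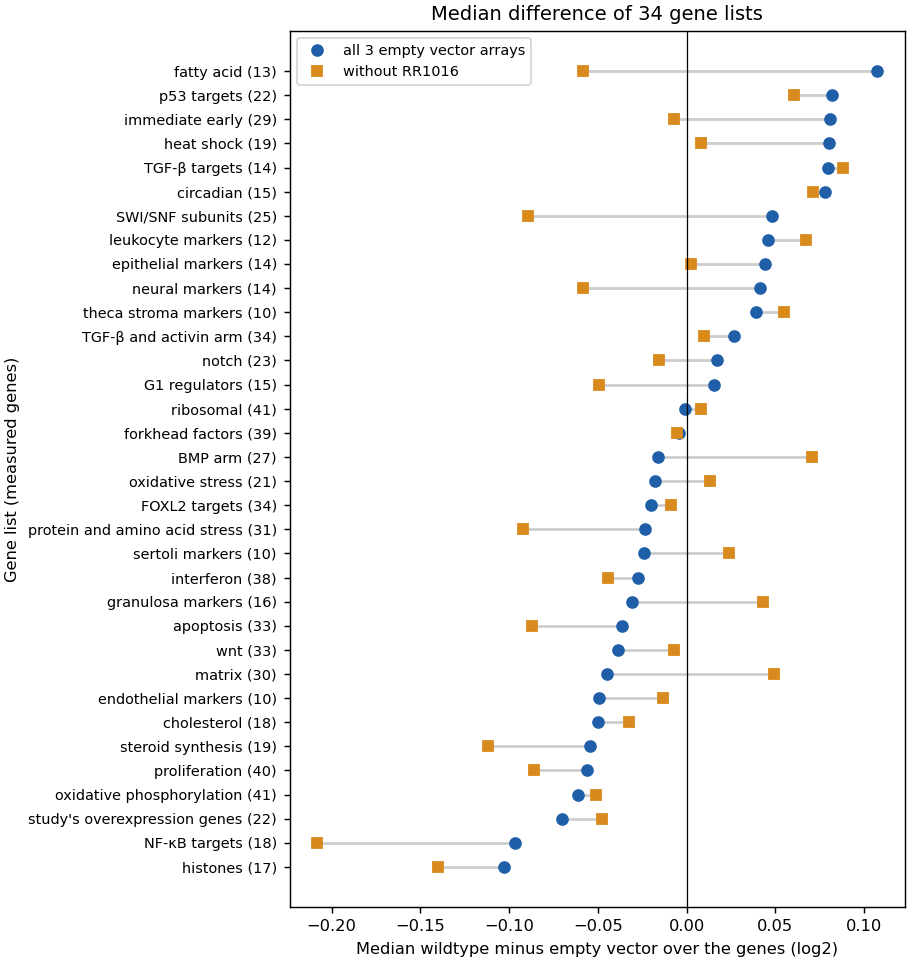
Median log2 difference, wildtype minus empty vector, of 34 gene lists (measured genes in brackets), with all 3 empty vector arrays (blue circles) and without RR1016 (orange squares). Every median lies between −0.21 and 0.11, and for fatty acid, SWI/SNF, matrix and several other lists the sign turns with RR1016; histone genes and NF-κB targets have the lowest medians in both versions.

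The largest differences of all appeared only without RR1016. KLF9, a Krüppel-like factor that responds to steroid hormones, was at 6.62 and 6.29 on RR1021 and RR1023 and at 8.02, 7.66 and 7.57 with wildtype FOXL2, a rise of 1.29 (2.45-fold, adjusted p = 0.0165). RR1016, at 7.81, lay inside the wildtype range, and with it the difference was 0.84 (SE 0.32, adjusted p = 0.401). A KLF9 probe set of similar brightness differed by −0.08. SEC24D, a coat protein of vesicles leaving the endoplasmic reticulum, was at 6.09 and 6.10 against 7.43, 7.46 and 7.12, with RR1016 at 7.58 (1.25 without RR1016, adjusted p = 0.0165). ATP11A, a lipid flippase, and TMA16, a ribosome biogenesis factor, rose by 1.27 and 1.25 without RR1016 (adjusted p = 0.0223 and 0.0165), with RR1016 at 7.63 and 6.61. For SEC24D and TMA16 the degraded array exceeded every wildtype array, and for ATP11A it lay between the highest and the next. In these genes it was RR1021 and RR1023 that differed from all other COV434 arrays, RR1016 included.

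Mutant FOXL2 arrays were then set beside these values. The differences of both plasmids from empty vector share the same control arrays, so their likeness is not independent. BAMBI differed by −0.96 with mutant and −0.82 with wildtype FOXL2, NR4A3 by −0.67 and −0.70, HEY2 by −0.47 and −0.56, NR1D2 by 0.61 and 0.67, TSPAN18 by 0.92 and 0.77, and YPEL2 by 1.05 and 0.76. The direct comparison, mutant minus wildtype, leaves the empty vector out of the difference, though those arrays still enter the shared estimate of spread. No probe set passed there (limma, 0 of 54613, 0% called, lowest adjusted p = 1), and 608 (1.11%) had an unadjusted p under 0.05. Of the 715 probe sets that rose with wildtype FOXL2 without RR1016, 8 (1.12%) had an unadjusted p under 0.05 for mutant minus wildtype, and of the 542 that fell, 13 (2.4%). These p-values come from the fit with all arrays, so RR1016 entered their spread. For KLF9 the limma unadjusted p was 0.384 there and 0.0534 without RR1016, and for SEC24D 0.488 and 0.0811. The low counts therefore do not show that the called probe sets are alike with both plasmids.

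Some members had wider gaps between the plasmids, none of which passed. PALS2 was at 5.42 ± 0.04 with wildtype and 5.76 ± 0.13 with mutant FOXL2 (SD, n = 3 each), a mutant minus wildtype difference of 0.34 (SE 0.13, limma unadjusted p = 0.0240). SMAD6 was at 7.30 ± 0.10 and 7.04 ± 0.14 (−0.27, limma unadjusted p = 0.0243). The mutant minus wildtype difference of ID3 was −0.31 and that of ID2 −0.34 (limma unadjusted p = 0.0101 and 0.00859), and that of INHBA −0.32 (limma unadjusted p = 0.0322). Without RR1016 the limma unadjusted p was 0.00299 for PALS2, 0.0174 for SMAD6, 0.00346 for ID3, 0.00647 for ID2 and 0.0258 for INHBA. ID2 on the mutant arrays, at 11.91, 12.13 and 11.87, overlapped the empty vector arrays. A p that misses the threshold does not show that the 2 plasmids act alike: for PALS2 and SMAD6 the gap exceeded the SD of either group.

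The KGN arrays share no sample with this comparison and run in the opposite sense, since FOXL2 was reduced there. Of the 57 genes named by the rule, 5 passed in KGN: FOXL2 (−1.77), SOX9 (0.60), TGFBR1 (1.08), ATP11A (0.72) and SPATA18 (−0.78). Over all genes, 102 of 19775 (0.516%) did so. FOXL2, the target of the siRNA, and SOX9, whose rise in KGN the study reports, were named whatever their values. The count of 5 is therefore no result about the named genes. TGFBR1 and ATP11A were higher both with FOXL2 siRNA in KGN and with wildtype FOXL2 against RR1021 and RR1023 in COV434, while SPATA18 was lower in KGN and higher in COV434. Among the list members whose groups did not overlap in COV434, picked after their values were seen, TP53INP1 and SKI passed in KGN beside FOXL2. How many such members there were is not given, so no share is drawn from them. TP53INP1 rose there (1.11, adjusted p = 0.00218), as it was higher in COV434. SKI, a repressor of SMAD-driven transcription, fell there (−0.90, adjusted p = 0.00619) and was higher in COV434 (0.21, and 0.28 without RR1016). BAMBI (0.09), NR4A3 (0.03), HEY2 (0.01), NR1D2 (−0.19), TSPAN18 (0.22) and YPEL2 (0.11) did not pass in KGN.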

How the data were processed

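Total RNA (105 ng per sample) from transfected COV434 cells was amplified and hybridised to U133 Plus 2 arrays. The authors normalised the scans with RMA and background correction, and deposited 1 log2 signal per probe set and array. Software versions are not given in the sources used here. Of 54675 probe sets, 62 array controls were left out. A single gene symbol was held by 41091 probe sets in GEO's platform annotation, which can be old, several symbols by 1801 and none by 11721. AMH shares its probe set with another gene and is not named. Arrays have no depth, so their number and the signal over background limit precision.

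The 9 COV434 arrays were fitted by group with limma 3.58.1 (lmFit, eBayes) in R 4.3.3, with two-sided tests and Benjamini-Hochberg adjustment over 54613 probe sets. This was repeated without RR1016. KGN arrays were fitted separately. The fit was tested on simulated data with known changes. Groups came from the sample titles. Array RR1019 was grouped by its title.

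Named genes were, above background, the 12 with the largest rise and the 12 with the largest fall at an adjusted p under 0.05 in both versions, filled up from those with an unadjusted p under 0.01 in both and no overlap (no gene passed the first step); list members that passed in either version, at most 4 per list; FOXL2, STAR, CYP19A1, SOX9, SOX4, SMAD6, ATF3 and FST; and the 4 largest that passed in a single version. The members of the comparison, the gene lists and the tests were chosen with earlier results of these data known. Alternatives covered left-out arrays, the arrays in the fit, weights, normalisation, the variance prior, a filter on dim probe sets, an RNA quality covariate, thresholds and the choice of probe set.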

Additional observations from a re-analysis of the deposited data

Results flagged for a closer look

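The empty vector array RR1016 lay far from the other 8 COV434 arrays in both measures of RNA quality. Its 3′ minus 5′ log2 signal was 7.81 for ACTB and 4.67 for GAPDH, against at most 2.58 and 1.08 on the others, and its gap to the nearest array exceeded Dixon's 95% critical value in both. Chance flags about 1 in 20 such groups. RR1016 had, however, been singled out beforehand for these same values, so the flag was fixed in advance and adds no evidence.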

How the results depend on the processing

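With all 3 empty vector arrays, 0 probe sets passed in every alternative that kept the threshold, leaving out each array in turn included (0 to 1257, the latter without RR1016), except with the ACTB 3′ minus 5′ value as a covariate (1439: 820 higher and 619 lower); 1580 had an unadjusted p under 0.01. Without RR1016, 1257 passed, and 1211 (842 higher, 369 lower) after quantile normalisation of the 8 arrays. Leaving out a further array gave 0 (RR1018, RR1020, RR1017 or RR1024), 66 (RR1022), 76 (RR1019), 1892 (RR1021) and 8837 (RR1023); in the last 2, the lone empty vector array was assumed to vary like the others. Array weights on the 8 arrays gave 0. The cause of these shifts was not tested. These settings without RR1016, apart from its removal and the fit without mutant arrays, were chosen after seeing the data. Mutant minus empty vector went from 0 to 1633 without RR1016 (822 higher, 811 lower), and mutant minus wildtype stayed at 0 in each of 3 settings.

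Of 1001 recomputed values of named genes, 902 kept direction and side of the threshold, 85 newly passed it and 14 reversed; none could lose it, since none passed with all arrays. CYP19A1 turned to 0.10 without RR1016, also without the mutant arrays, and to 0.12 with the ACTB covariate. ATF3 turned to −0.12 without RR1016 in both fits, −0.013 with array weights and −0.14 with the covariate. SOX9 turned to 0.058 without RR1021 and 0.054 with array weights. SIRT1 turned to −0.043 without RR1023, and FZD2 to 0.16 without RR1021 and 0.11 without RR1023. With the probe set brightest over all 15 arrays, KLF9 turned to −0.084 and CLDN11 to −0.19.

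No paired analysis was possible because the labels carry no replicate numbers. Signals under 5.15 are near background and their differences are compressed. With 3 arrays against 3, an exact permutation test cannot go below p = 0.1.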
